A study of Rattus norvegicus with 6 samples.

Results

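The genes described here encode the calcium-activated phosphatase calcineurin, its feedback regulator, the NFAT transcription factors it acts on, and the heart and muscle chains of calcium/calmodulin-dependent protein kinase II (CaMKII). They were chosen by name: Ppp3ca, Ppp3cb and Ppp3r1 for calcineurin, Rcan1 for its regulator, Nfatc1, Nfatc2, Nfatc3 and Nfatc4 for NFAT, and Camk2d and Camk2g for CaMKII. All 10 had 1 row each among the 22250 genes of the deposited table, and all 10 passed the filter on low counts. RNA was measured in wild-type cardiomyocytes freed by collagenase from the hearts of 1-day-old Sprague-Dawley rats and cultured in medium with 10% serum. Treated cells received 3Cl-HBA, an agonist of the lactate receptor HCAR1, at 40 µM for 48 h, and control cells received the solvent DMSO for 48 h, with 3 libraries each. The series title asks how activation of that receptor affects these cells. Nothing in the labels says that the 3 libraries of a group came from separate cultures or litters, so the p-values measure only the spread between these libraries, which may be technical.

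Calcineurin is a heterodimer of a catalytic A subunit and a small calcium-binding B subunit, and it is switched on when calcium-loaded calmodulin binds the A subunit. It removes phosphates from NFAT proteins in the cytoplasm, which then enter the nucleus and act with partners such as GATA4 on genes of cardiac growth. CaMKII is a multi-chain kinase that also responds to calcium-loaded calmodulin and, in heart muscle, phosphorylates calcium-handling proteins and class II histone deacetylases that restrain MEF2. Both branches are known in the heart chiefly for their part in hypertrophy, and both are regulated largely at the level of protein activity and location, which RNA levels do not report.

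Rcan1 is a member whose own transcription answers to the pathway. In mouse and human, NFAT drives it from a promoter inside the gene, and its protein binds and restrains calcineurin. The 250 bases before the gene start that RefSeq gives for rat Rcan1 are shown because this gene is a transcript readout of calcineurin activity. The window lies at chr11:45118237-45118486 on the minus strand of assembly GRCr8 and is written 5′ to 3′, with capitals for GGAAA, the core that NFAT proteins bind, and for TGACGTCA, the cAMP response element, on either strand.
Rcan1: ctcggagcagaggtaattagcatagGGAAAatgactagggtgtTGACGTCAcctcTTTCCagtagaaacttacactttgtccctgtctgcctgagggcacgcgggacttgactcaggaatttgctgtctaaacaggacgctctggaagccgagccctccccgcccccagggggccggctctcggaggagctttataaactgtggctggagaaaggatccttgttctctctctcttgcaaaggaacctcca
The window holds GGAAA 2 times, beginning 225 and, on the other strand, 195 bases before the start, and TGACGTCA once, beginning 207 bases before it. None of these matches overlaps another. GGAAA is a short word found 1 or more times in 56.9% of the 33469 RefSeq windows of this length. The share with 2 or more was not counted. GGAAA is found 3 or more times, which the Rcan1 window does not reach, in 7.14% of these windows. TGACGTCA, which was searched for after the sequence was seen, is found in 1.59% of them. Whether this window is the promoter inside the gene from which NFAT drives Rcan1 was not tested. RefSeq windows were matched for 7 of the 10 genes. Ppp3cb and Ppp3r1 each had GGAAA 1 time, while Ppp3ca, Nfatc2, Camk2d and Camk2g had it 0 times, and TGACGTCA was found 0 times in those 6 windows. Nfatc1, Nfatc3 and Nfatc4 had no matched window.

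The libraries held 14607337 to 17202191 reads assigned to genes after 3Cl-HBA, against 13240800 to 14499065 in DMSO, and the 10 genes together took 0.0823% to 0.0881% of a library's reads. Heart muscle markers were abundant, as in the labelled cell type, with a summed level of 18632 to 18896 counts per 1000000 reads (CPM) over 8 markers after 3Cl-HBA, against 18379 to 19627 CPM in DMSO. Other heart cells were present. The 6 fibroblast markers summed to 15057 to 15328 CPM after 3Cl-HBA, against 14932 to 15819 CPM in DMSO. The 5 matched endothelial markers summed to 572 to 604 CPM after 3Cl-HBA and 555 to 624 CPM in DMSO, and the 6 smooth muscle and pericyte markers to 2444 to 2486 CPM after 3Cl-HBA and 2383 to 2615 CPM in DMSO. For the 6 macrophage and leukocyte markers the sums were 331 to 342 CPM after 3Cl-HBA and 305 to 333 CPM in DMSO. Schwann cell and neuronal markers (6) summed to 96.3 to 113 CPM after 3Cl-HBA and 95.4 to 99.2 CPM in DMSO, and the 3 matched erythroid markers to 22.5 to 31.7 CPM after 3Cl-HBA and 21.0 to 22.5 CPM in DMSO. T cell markers were scarce, with 5.86 to 6.61 CPM after 3Cl-HBA and 4.20 to 8.08 CPM in DMSO over 6 genes, and the T cell receptor complex genes Cd3e, Cd3g and Cd3d had 0 to 1, 0 to 4 and 0 to 3 reads per library. Each of these ranges overlapped between treatments, the erythroid ones only between 22.47 and 22.50 CPM. Among single markers, groups did not overlap for Hba-a1, higher after 3Cl-HBA, and for Ryr2, Tcf21 and Rgs5, lower after it. Over all genes tested, 10.5% did not overlap. Hba-a1 had 15.4 to 22.6 CPM after 3Cl-HBA and 12.3 to 15.0 CPM in DMSO (log2 fold change 0.49, edgeR unadjusted p 0.00025, adjusted p 0.845). In bulk RNA, fewer cells of a type and less RNA per cell cannot be told apart.

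Levels between genes were compared per length, as reads per kilobase of gene length per 1000000 scaled reads (RPKM). The feedback regulator Rcan1 led the order in each of the 6 libraries, with a mean of 105 RPKM, 2.30 times that of the next gene, and its mean FPKM was above that of 96.4% of the named genes with a read. Behind it stood a group of 4 genes within a narrow span, the CaMKII chain Camk2d at 45.5 RPKM, the calcineurin B subunit Ppp3r1 at 42.5, the catalytic subunit Ppp3cb at 35.3 and the catalytic subunit Ppp3ca at 28.2. Camk2d lay above Ppp3r1 in 5 of 6 libraries and Ppp3r1 above Ppp3cb in 6 of 6, although the ranges of each of these pairs overlapped across libraries. Ppp3cb and Ppp3ca did not overlap. Nfatc3 followed at 15.2 RPKM, apart from its neighbours on both sides. Nfatc4 at 4.56 RPKM, Nfatc1 at 4.02 and Camk2g at 3.54 had overlapping ranges, and Nfatc2 was lowest at 1.37 RPKM and apart from Camk2g. The members thus spanned from 56 to 99 reads per library for Nfatc2 to 3051 to 3990 reads for Rcan1.

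**Figure D1:**
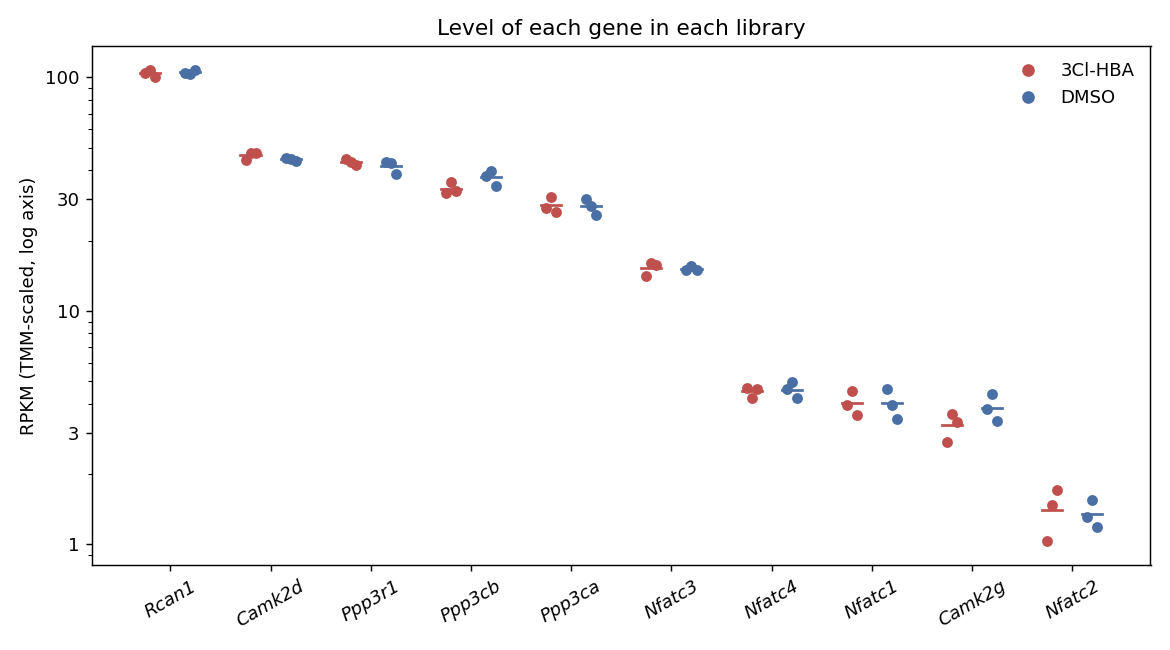
Level of each of the 10 genes in each library, in RPKM on a log axis, with 3Cl-HBA libraries in red on the left and DMSO libraries in blue on the right of each gene; short bars are group means. Rcan1 stands alone near 105 RPKM, Nfatc2 is lowest at 1.37 RPKM, and for every gene the points of both groups overlap.

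None of the 10 transcripts was called between 3Cl-HBA and DMSO, and for none did the 3 treated libraries lie entirely above or below the 3 DMSO libraries. With edgeR's quasi-likelihood test fitted to all 13903 genes that passed the filter, 0 (0%) passed a Benjamini-Hochberg adjusted p of 0.05, and DESeq2, run without the filter, also called 0. Before adjustment, 711 genes (5.11%) had an edgeR p under 0.05, and 405 did with DESeq2. Groups did not overlap in 10.5% of the genes, 5.24% with 3Cl-HBA higher and 5.22% with 3Cl-HBA lower. Of the 10 members, 2 had an unadjusted p under 0.05, Ppp3cb and Camk2g, both lower after 3Cl-HBA. Fold changes of the members were above 0 on the log2 scale for 6 and below 0 for 4, with a median of 0.0051, beside a median of -0.00052 over all genes tested. Each member's 95% interval lay inside 1.5-fold in both directions, which was so for 80.9% of all genes tested.

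**Figure D2:**
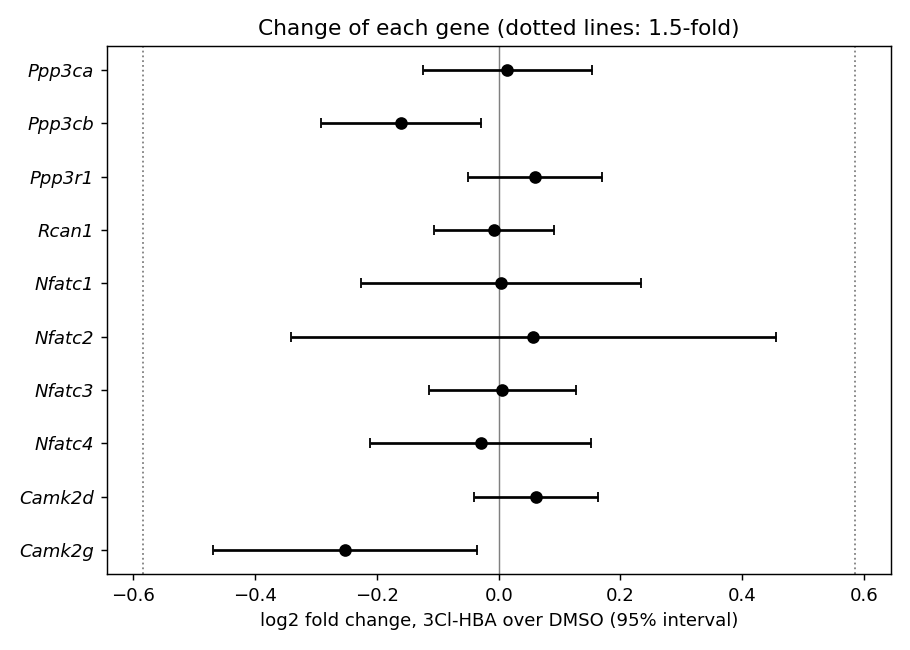
Log2 fold change of each gene, 3Cl-HBA over DMSO, with its 95% interval from the edgeR fit; dotted lines mark 1.5-fold. The 10 intervals all lie between the dotted lines, and those of Ppp3cb and Camk2g lie below 0 before adjustment for the number of genes tested.

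Among the catalytic subunits of calcineurin, the beta isoform Ppp3cb had the more uneven levels. Ppp3cb, the isoform on which load-induced hypertrophy depends in mice (ENSRNOG00000054782, chromosome 15, 4209703 to 4236895, plus strand, in the coordinates of the deposited table, of a genome build the sources used here do not name), had 31.9, 35.5 and 32.7 RPKM after 3Cl-HBA, against 37.8, 39.9 and 34.1 RPKM in DMSO. The highest treated library lay above the lowest DMSO library, so the groups overlapped. The means were 33.4 ± 1.90 after 3Cl-HBA and 37.3 ± 2.92 RPKM in DMSO (SD, n = 3 each), a log2 fold change of -0.16 (95% interval -0.29 to -0.029, with SE 0.065, edgeR unadjusted p 0.0176, adjusted p 0.959). In percent the difference was -10.5%, with an interval of -18.3% to -2.02% that is not adjusted for how many genes were tested. The unadjusted edgeR p was above 0.05 with each of 4 libraries left out in turn, at 0.0686 without 3Cl-HBA replicate 1, 0.0588 without 3Cl-HBA replicate 3, 0.0532 without DMSO replicate 1 and 0.140 without DMSO replicate 2, where the log2 fold change was -0.11. Ppp3ca, the alpha isoform (ENSRNOG00000009882, chromosome 2, 241909832 to 242184854, plus strand), had 27.7, 30.7 and 26.6 RPKM after 3Cl-HBA, against 30.3, 28.2 and 25.8 RPKM in DMSO. Its groups lay on top of each other, with a log2 fold change of 0.014 (95% interval -0.13 to 0.15, with SE 0.069, edgeR adjusted p 0.998).

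The regulatory subunit and the feedback regulator were the steadier calcineurin genes. Ppp3r1, the B subunit that binds calcium (ENSRNOG00000043210, chromosome 14, 100311173 to 100360879, plus strand), had 44.6, 43.3 and 42.3 RPKM after 3Cl-HBA, against 43.5, 42.9 and 38.5 RPKM in DMSO. DMSO replicate 3 was the low library, and the other 5 lay close together, with a log2 fold change of 0.060 (95% interval -0.050 to 0.17, with SE 0.054, edgeR adjusted p 0.984). Rcan1 (ENSRNOG00000001979, chromosome 11, 32539683 to 32550539, minus strand) had 104.9, 108 and 100.7 RPKM after 3Cl-HBA, against 104.4, 103.9 and 107 RPKM in DMSO. The highest and the lowest library were both treated ones, and DMSO lay between them. Its log2 fold change was -0.0079 (95% interval -0.11 to 0.090, with SE 0.049, edgeR adjusted p 0.998), or -0.546% with an interval of -7.10% to 6.46%, the narrowest among the 10. Its coefficient of variation over the 6 libraries was 2.52%, where counting of its reads alone gives 1.72%. The table has 1 row for Rcan1, so transcripts from its different promoters were not separated.

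The NFAT genes differed between treatments by less than the spread between libraries. Nfatc3, the most abundant, which mediates calcineurin-driven heart growth in mice (ENSRNOG00000054264, chromosome 19, 38039564 to 38114003, plus strand), had 14.0, 16.0 and 15.7 RPKM after 3Cl-HBA, against 14.9, 15.6 and 15.0 RPKM in DMSO. Nfatc4, known as a partner of GATA4 (chromosome 15, 34493138 to 34504326, plus strand), had 4.69, 4.25 and 4.61 RPKM after 3Cl-HBA, against 4.64, 4.94 and 4.21 RPKM in DMSO. For both genes the treated values fell within or around the DMSO range, with log2 fold changes of 0.0060 (95% interval -0.12 to 0.13, with SE 0.060) for Nfatc3 and -0.030 (-0.21 to 0.15, with SE 0.090) for Nfatc4. Reads of Nfatc3 may include some from Esrp2, which overlaps it on the other strand and held 217 reads in all libraries together, against 8323 for Nfatc3.

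Nfatc1 and Nfatc2 were the scarcer factors and are known mainly from other cells, Nfatc1 from the endocardium of the forming heart valves and Nfatc2 from T cells. Nfatc1 (chromosome 18, 77203525 to 77322690, minus strand) had 3.94, 4.54 and 3.58 RPKM after 3Cl-HBA, against 4.64, 3.94 and 3.46 RPKM in DMSO. Nfatc2 (chromosome 3, 165245238 to 165360292, minus strand) had 1.03, 1.47 and 1.70 RPKM after 3Cl-HBA, against 1.31, 1.54 and 1.19 RPKM in DMSO. Treated libraries were both the lowest and the highest for Nfatc2, and its coefficient of variation of 17.9% compares with 11.5% from counting alone. The log2 fold changes were 0.0042 (95% interval -0.23 to 0.23, with SE 0.11) for Nfatc1 and 0.057 (-0.34 to 0.46, with SE 0.20) for Nfatc2, and the edgeR adjusted p of the 4 NFAT genes were 0.996 or 0.998. For Nfatc2, a level 1.37-fold higher was within the interval. Which cells of the culture carried these transcripts was not tested. The endothelial and T cell marker sums given above overlapped between treatments.

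The CaMKII chains were of very unequal abundance. Camk2d, the main cardiac chain (ENSRNOG00000011589, chromosome 2, 230901126 to 231132039, plus strand), had 44.5, 47.4 and 47.5 RPKM after 3Cl-HBA, against 45.3, 44.7 and 43.7 RPKM in DMSO. Treated replicates 2 and 3 lay above each DMSO library and treated replicate 1 did not, with a log2 fold change of 0.061 (95% interval -0.040 to 0.16, with SE 0.050, edgeR adjusted p 0.984). Camk2g, the other chain found in heart (ENSRNOG00000009783, chromosome 15, 3936786 to 3995915, plus strand), had 2.74, 3.60 and 3.35 RPKM after 3Cl-HBA, against 3.80, 4.39 and 3.37 RPKM in DMSO. Only treated replicate 2 lay above a DMSO library, the lowest one. The means of 3.23 ± 0.445 after 3Cl-HBA and 3.85 ± 0.513 RPKM in DMSO (SD, n = 3 each) gave the lowest fold change of the 10 genes, -0.25 on the log2 scale (95% interval -0.47 to -0.035, with SE 0.11, edgeR unadjusted p 0.0237, adjusted p 0.959). That is -16.0%, with an interval of -27.8% to -2.43%. With DESeq2 the unadjusted p was 0.0613. The log2 fold change was -0.15 without 3Cl-HBA replicate 1 (edgeR unadjusted p 0.182) and -0.15 without DMSO replicate 2 (edgeR unadjusted p 0.228). Its spread over all libraries, a coefficient of variation of 15.5%, was 2.77 times that of counting alone.

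The composition of each family was read as each gene's share of the family's summed FPKM, and the leading gene of each family was the same in all 6 libraries. In the calcineurin A family, Ppp3cb made up 41.8% ± 0.650 after 3Cl-HBA and 44.1% ± 1.38 in DMSO, Ppp3ca 35.5% ± 1.01 after 3Cl-HBA and 33.2% ± 1.33 in DMSO, and the gamma isoform Ppp3cc, better known from testis and brain, 22.7% ± 1.03 after 3Cl-HBA and 22.7% ± 1.30 in DMSO (SD, n = 3 each). Of the NFAT genes, Nfatc3 held 60.5% ± 1.12 after 3Cl-HBA and 60.4% ± 2.24 in DMSO, Nfatc4 18.0% ± 1.80 after 3Cl-HBA and 18.3% ± 0.658 in DMSO, Nfatc1 16.0% ± 1.74 after 3Cl-HBA and 15.9% ± 1.99 in DMSO, and Nfatc2 5.53% ± 1.15 after 3Cl-HBA and 5.35% ± 0.503 in DMSO. Among CaMKII chains, Camk2d held 82.8% ± 1.78 after 3Cl-HBA and 82.4% ± 0.637 in DMSO, and Camk2g 5.73% ± 0.502 after 3Cl-HBA and 7.12% ± 0.871 in DMSO, while the neuronal chains Camk2a and Camk2b held 7.79% ± 1.16 and 3.73% ± 0.383 after 3Cl-HBA, against 6.29% ± 1.40 and 4.20% ± 0.480 in DMSO. The shares rest on the deposited gene lengths, 1514 bases for Camk2a and 6098 for Camk2g. By reads Camk2a was the lower, with 62 to 139 per library against 245 to 389 for Camk2g.

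Both genes with an unadjusted p under 0.05 also had shares that did not overlap between treatments. The share of Ppp3cb was 41.0%, 42.1% and 42.3% after 3Cl-HBA, against 43.4%, 45.7% and 43.2% in DMSO, a difference of -2.34 percentage points. That of Camk2g was 5.17%, 6.13% and 5.90% after 3Cl-HBA, against 6.98%, 8.05% and 6.33% in DMSO, a difference of -1.39 points. In each case every treated library lay below every DMSO library, and the exact two-sided permutation test gave p 0.1, the smallest that 3 against 3 allows, or 0.4 adjusted over the 8 shares compared. The other 6 shares overlapped, with differences of 2.26 points for Ppp3ca (exact permutation p 0.2), 0.36 for Camk2d (0.8), -0.28 for Nfatc4 (0.9), 0.18 for Nfatc2 (0.9), 0.049 for Nfatc3 (1) and 0.048 for Nfatc1 (1). With the members alone in the family, without Ppp3cc, Camk2a and Camk2b, the groups of Ppp3ca and of Camk2d did not overlap either, with differences of 2.96 and 1.47 points (exact permutation p 0.1 for both). Each family then holds 2 genes, so these mirror the differences of Ppp3cb and Camk2g. These shares come from the counts that gave the 2 genes their fold changes and are no separate evidence. Over single genes, 5.22% had treated libraries entirely below DMSO.

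**Figure D3:**
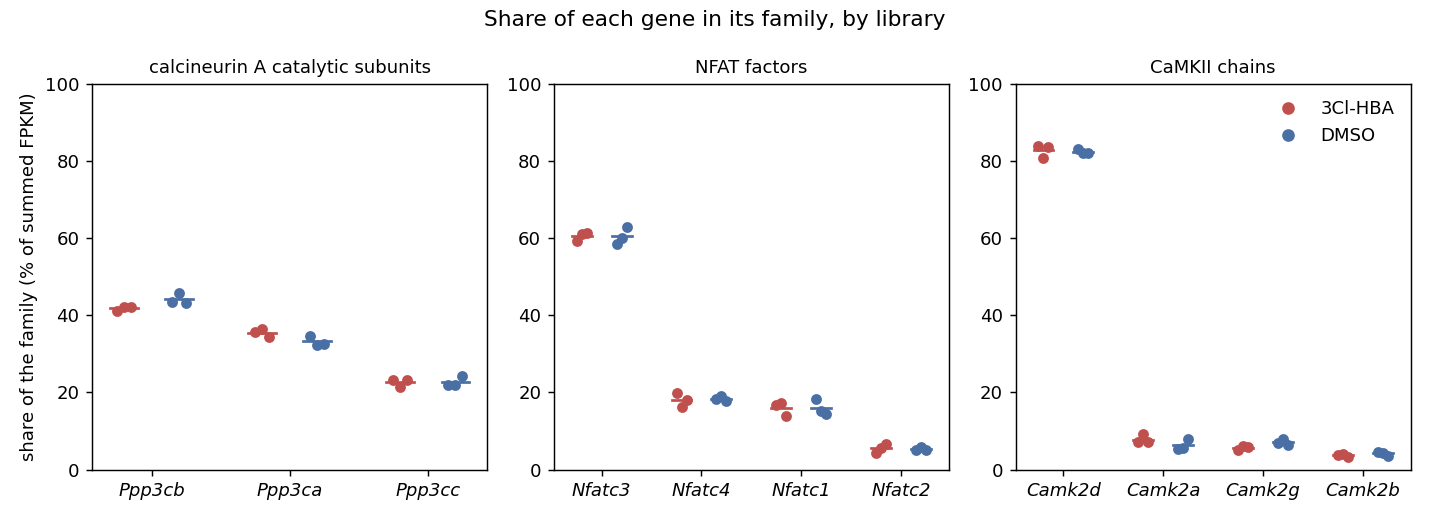
Share of each gene in its family, in percent of the family's summed FPKM, for each 3Cl-HBA library (red, left) and DMSO library (blue, right); short bars are group means. Ppp3cb, Nfatc3 and Camk2d lead their families in both treatments, and the shares of Ppp3cb and Camk2g lie lower after 3Cl-HBA without overlap.

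Ratios between members, added after the data were seen, give the balance of subunits and chains. Ppp3r1 FPKM per summed FPKM of the 3 catalytic genes were 0.574, 0.513 and 0.547 after 3Cl-HBA, against 0.4996, 0.492 and 0.487 in DMSO. Camk2d per Camk2g was 16.2, 13.2 and 14.2 after 3Cl-HBA, against 11.9, 10.2 and 13.0 in DMSO. Ppp3cb per Ppp3ca was 1.15, 1.16 and 1.23 after 3Cl-HBA, against 1.25, 1.42 and 1.32 in DMSO. Each of these 3 ratios separated the groups (exact two-sided permutation p 0.1, or 0.133 adjusted over 4 ratios). Ppp3cb or Camk2g enters each of the 3, and their lower levels had already been seen. The ratios come from the same counts and are no separate evidence. How often ratios of other genes separate the groups was not tested. Rcan1 per catalytic FPKM, a measure of regulator against enzyme, overlapped at 1.35, 1.28 and 1.30 after 3Cl-HBA and 1.20, 1.19 and 1.36 in DMSO (exact permutation p 0.4). They are RNA ratios and do not give the makeup of the protein complexes.

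Some members shared a chromosome or an annotated pathway. Camk2g and Ppp3cb lie 214 kb apart on chromosome 15, with 8 other genes of the table between them, and Nfatc4 lies on the same chromosome 30.3 Mb beyond Ppp3cb. Camk2d and Ppp3ca share chromosome 2 at a distance of 10.8 Mb. Camk2g and Ppp3cb, the 2 members with an edgeR unadjusted p under 0.05, were both highest in DMSO replicate 2 and lowest in 3Cl-HBA replicate 1. They were compared after their values were seen, and how many other genes have these extremes was not counted. A link between their positions and their levels was not tested. In the table's own pathway annotation, oxytocin signalling held 10 of 10 members among its 142 named genes, and Wnt signalling 9 among 155. Axon guidance, lipid and atherosclerosis, and Kaposi sarcoma-associated herpesvirus infection held 8 each, among 174, 194 and 183. cGMP-PKG signalling held 7 among 158, as many as cellular senescence and several infection pathways. Calcium signalling held 5 among 224 and cAMP signalling 3 among 205. Other pathways, many of infection or immunity, are not listed here.

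No single library set the levels of all members. DMSO replicate 3 was lowest for 5 of the 10, Ppp3ca, Ppp3r1, Nfatc1, Nfatc4 and Camk2d, and 3Cl-HBA replicate 1 for 4, Ppp3cb, Nfatc2, Nfatc3 and Camk2g. 3Cl-HBA replicate 2 was highest for Ppp3ca, Rcan1 and Nfatc3, and DMSO replicate 2 for Ppp3cb, Nfatc4 and Camk2g. Counting alone would give coefficients of variation of 1.72% to 11.5%, and those measured were 1.24 to 2.92 times larger, the largest excess being that of Ppp3cb.

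The genes whose log2 CPM over the 6 libraries ran most like that of Rcan1 were Lrsam1, a ubiquitin ligase gene (Pearson r 0.989), Gmfg, glia maturation factor gamma (0.974), and Isg15, an interferon-induced ubiquitin-like modifier (0.971). They were picked as the highest of 11086 genes searched, of which 12 had an r over 0.95. The points share libraries and depth, and none of the 3 passed the test between treatments (edgeR adjusted p 0.998 to 1.000).

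No partner of calcineurin passed the test. Of 15 listed genes, 14 were matched and 13 tested, with 0 called higher, 0 called lower and a median log2 fold change of 0.0072. Among the most abundant were Ppia and Fkbp1a, the cellular receptors of the calcineurin-blocking drugs cyclosporin and tacrolimus. Ppia had 999.6 ± 109 RPKM after 3Cl-HBA and 1023 ± 56.0 RPKM in DMSO, and Fkbp1a 261 ± 8.35 after 3Cl-HBA and 259 ± 16.9 in DMSO (SD, n = 3 each). Groups did not overlap for 5 of the 13, where 10.5% of all genes tested did not. Among them were Rcan2, Akap5 and Ppp3cc, all named with their values already known. Rcan2, a relative of Rcan1, had 18.4 ± 0.923 after 3Cl-HBA and 17.0 ± 0.340 RPKM in DMSO (log2 fold change 0.11). Akap5, which anchors calcineurin at membranes, had 9.39 ± 0.870 after 3Cl-HBA and 10.7 ± 0.341 in DMSO (-0.19). Ppp3cc had 18.1 ± 0.072 after 3Cl-HBA and 19.1 ± 0.105 in DMSO (-0.076, SE 0.080, edgeR unadjusted p 0.347, adjusted p 0.986). Despite the small SDs of Ppp3cc, its log2 fold change was no larger in size than its SE. The other 2 were Chp1, a calcineurin B homologue (log2 fold change 0.089), and Myoz1, a Z-disc protein that binds calcineurin (2.24 ± 0.416 after 3Cl-HBA and 1.51 ± 0.247 RPKM in DMSO, 0.58, edgeR unadjusted p 0.0453, adjusted p 0.959). Akap5 was the other gene of the list with an unadjusted p under 0.05 (edgeR 0.0429, adjusted p 0.959). Over all genes tested, 5.11% had an edgeR unadjusted p under 0.05.

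Genes that act on NFAT gave no calls either. Of 12 listed genes, such as the kinases that return phosphates to NFAT, 12 were tested, 0 passed, and the median log2 fold change was -0.022. The casein kinase Csnk1a1 had 171 ± 2.38 RPKM after 3Cl-HBA and 177 ± 18.2 RPKM in DMSO, the NFAT kinase Dyrk1a 34.2 ± 0.360 after 3Cl-HBA and 34.2 ± 0.103 in DMSO, and Ilf2, a subunit of a factor first isolated as an NFAT-binding protein, 35.1 ± 0.678 after 3Cl-HBA and 33.8 ± 1.37 in DMSO (SD, n = 3 each). Homer1, picked because its unadjusted p was the smallest of the list, encodes a scaffold protein and had 10.6 ± 1.07 after 3Cl-HBA and 12.8 ± 1.15 RPKM in DMSO (log2 fold change -0.27, SE 0.095, edgeR unadjusted p 0.00609, adjusted p 0.959).

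Of the other calmodulin-dependent kinases and the CaMKII inhibitors, 14 were listed, 13 tested and 0 passed, 4 being above 0 on the log2 scale and 9 below, with a median of -0.079. The most abundant were the cardiac myosin light chain kinase Mylk3 (76.0 ± 1.69 RPKM after 3Cl-HBA and 78.9 ± 3.51 RPKM in DMSO), the elongation factor kinase Eef2k (18.1 ± 0.759 after 3Cl-HBA and 18.7 ± 0.293 in DMSO) and Camk2n1, which encodes an inhibitor of CaMKII (12.6 ± 1.87 after 3Cl-HBA and 15.8 ± 1.27 in DMSO). Camk2n1 had groups that did not overlap and a log2 fold change of -0.33 (95% interval -0.69 to 0.036, with SE 0.18, edgeR adjusted p 0.975). Camk2a had 4.39 ± 0.860 after 3Cl-HBA and 3.39 ± 0.705 RPKM in DMSO (log2 fold change 0.38, SE 0.19, edgeR unadjusted p 0.0454, adjusted p 0.959). Camk1g, another calmodulin-dependent kinase gene, had 0.845 ± 0.143 after 3Cl-HBA and 1.31 ± 0.609 RPKM in DMSO (log2 fold change -0.62, SE 0.29, edgeR unadjusted p 0.0401, adjusted p 0.959). These 2 were the genes of the list with an edgeR unadjusted p under 0.05, beside 5.11% of all genes tested. Both were named after their values were seen. Groups did not overlap for 2 of the 13, Camk2n1 among them, beside 10.5% of all genes tested. With intervals inside 1.5-fold for 8 of the 13, this list left more room for undetected differences than the members did.

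Downstream lists gave no calls. The MEF2, class II HDAC and CAMTA list had 11 of 12 genes tested, 0 called and a median log2 fold change of -0.022. Its leading genes were Mef2a with 56.0 ± 3.83 RPKM after 3Cl-HBA and 56.8 ± 7.55 RPKM in DMSO, Gata4 with 56.0 ± 1.44 after 3Cl-HBA and 55.1 ± 3.62 in DMSO, and the MEF2 repressor Hdac5 with 33.6 ± 1.76 after 3Cl-HBA and 34.4 ± 1.98 in DMSO. Of 12 hypertrophy genes associated with NFAT, 12 were tested and 0 called, with a median of 0.0033. The 3 most abundant were Nppa, the atrial natriuretic peptide gene (3955 ± 331 after 3Cl-HBA and 4340.2 ± 181 RPKM in DMSO, log2 fold change -0.13, edgeR unadjusted p 0.00866, adjusted p 0.959), the stretch-responsive gene Ankrd1 (1840.1 ± 12.5 after 3Cl-HBA and 1827 ± 37.9 in DMSO, 0.010) and Nppb (572 ± 38.1 after 3Cl-HBA and 573 ± 24.2 in DMSO, -0.0039). The slow myosin heavy chain gene Myh7, named after its values were seen, had 408 ± 9.75 after 3Cl-HBA and 436 ± 30.3 RPKM in DMSO, with groups that did not overlap (log2 fold change -0.097, edgeR unadjusted p 0.0304, adjusted p 0.959). Groups did not overlap for 2 of the 12, where 10.5% of all genes tested did not. The other was Trpc6, which was higher after 3Cl-HBA and was also named after its values were seen. It had 2.32 ± 0.104 after 3Cl-HBA and 1.89 ± 0.281 RPKM in DMSO (log2 fold change 0.29, edgeR unadjusted p 0.0816, adjusted p 0.975). Of 9 listed CaMKII substrates in calcium handling, 8 were tested and 0 called, with a median of -0.025. Phospholamban Pln had 757 ± 19.0 after 3Cl-HBA and 739.7 ± 27.9 RPKM in DMSO, the calcium pump Atp2a2 678 ± 13.6 after 3Cl-HBA and 695 ± 16.7 in DMSO, and the release channel Ryr2 58.1 ± 4.48 after 3Cl-HBA and 65.3 ± 2.38 in DMSO with groups that did not overlap (log2 fold change -0.17, SE 0.047, edgeR unadjusted p 0.000917, adjusted p 0.913). Of the 8 substrates tested, 2 were lower and 1 higher at an edgeR unadjusted p under 0.05, beside 5.11% of all genes tested. Groups did not overlap for 2 of the 8, beside 10.5% of all genes tested. The other 2 substrates with an unadjusted p under 0.05 were named after their values were seen. The L-type calcium channel gene Cacna1c had 17.1 ± 0.673 after 3Cl-HBA and 18.8 ± 0.706 RPKM in DMSO, with groups that did not overlap (log2 fold change -0.13, edgeR unadjusted p 0.0150, adjusted p 0.959). Hrc, which encodes a calcium-binding protein of the sarcoplasmic reticulum, had 12.8 ± 0.408 after 3Cl-HBA and 11.2 ± 1.47 RPKM in DMSO (log2 fold change 0.19, edgeR unadjusted p 0.0398, adjusted p 0.959).

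**Figure D4:**
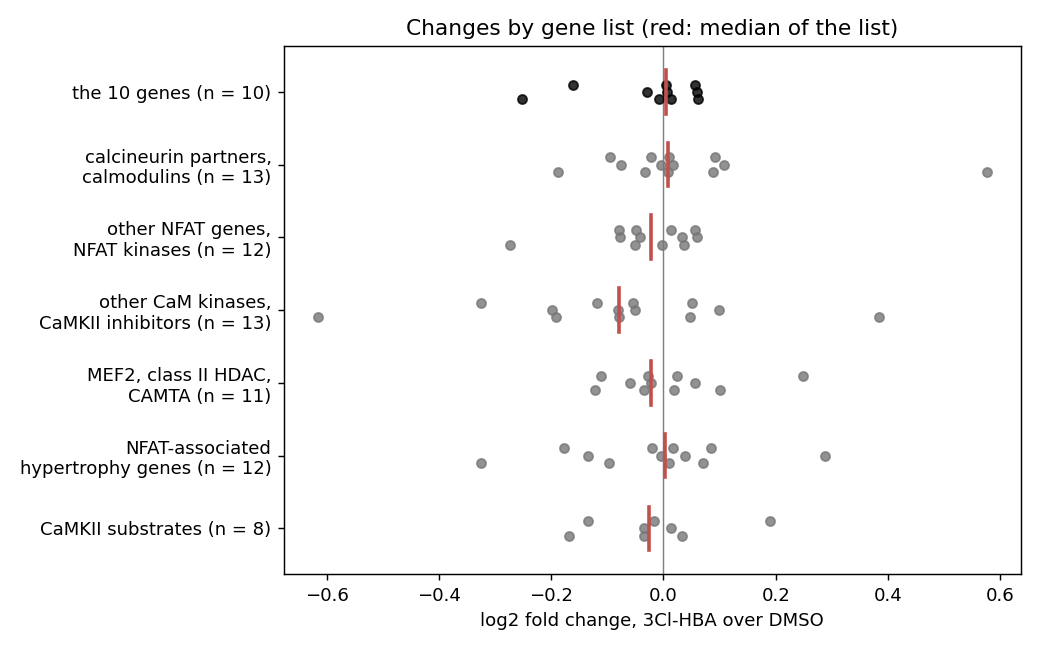
Log2 fold changes, 3Cl-HBA over DMSO, of the 10 genes (black) and of the tested genes of each list (grey), with the median of each in red. Medians run from -0.079 for the other CaM kinases and CaMKII inhibitors to 0.0072 for the calcineurin partners, and none of the genes drawn passed the test.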

How the data were processed

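The deposited table gives whole-number read counts per gene and library, not normalised, and FPKM, both made by the authors per the file headers; each FPKM equals the count divided by gene length and library total within a relative gap of 8.2e-08. The deposited gene length in bases was used for RPKM. The labels' protocols name a ribosomal RNA removal kit, an Illumina instrument and DESeq2. No source used here names the aligner, counter, strand setting, build or annotation, so reads of overlapping genes on opposite strands cannot be told apart.

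The test was edgeR 4.0.16 in R 4.3.3 (filterByExpr at a minimum count of 10, TMM scaling, robust quasi-likelihood fit, no block), with Benjamini-Hochberg adjustment over all 13903 genes tested. Log2 fold changes are unshrunk, and SEs are their size divided by the square root of F. RPKM and CPM use TMM-scaled totals. DESeq2 1.42.0 and limma 3.58.1 (voom) were alternatives, and shares were also taken without division by gene length and over the members alone. Steps were tested on simulated counts. No 2 libraries agreed within sampling noise. The samples' replicate numbers did not pair them: same-numbered deviations correlated at -0.069, -0.044 and -0.045. Members and lists were chosen with earlier results of these data known. Of 131 list symbols 127 were matched, and the others were not analysed here. A gene that the naming rule picked is not reported here. Named by rule were the 10 members, the 3 most abundant tested genes of each pathway list, called genes, and the 3 genes most like Rcan1 with a mean of at least 5 CPM; other genes were named after their values were seen. Intervals use a 95% level and cover counting and library spread only.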

Additional observations from a re-analysis of the deposited data

How the results depend on the processing

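None of the 10 genes had an adjusted p under 0.05 in any of 12 alternatives each (DESeq2, library totals alone, no filter on low counts, limma-voom, replicate block, removal of each library's length trend, and each library left out). Over these alternatives the log2 fold change ran from -0.22 to -0.11 for Ppp3cb, from -0.34 to -0.15 for Camk2g, from 0.0031 (without DMSO replicate 3) to 0.092 for Ppp3r1 and from 0.043 to 0.092 for Camk2d. With the replicate block, which the numbers do not justify, 0 genes of the table were called and Ppp3cb had a log2 fold change of -0.16. With no filter on low counts 2 genes of the table were called, and with single libraries left out 0 to 8, the 8 without DMSO replicate 3. The log2 fold changes of the other 6 genes changed sign when single libraries were left out, with ranges of -0.050 to 0.070 for Ppp3ca, -0.033 to 0.016 for Rcan1, -0.095 to 0.12 for Nfatc1, -0.11 to 0.23 for Nfatc2, -0.030 to 0.061 for Nfatc3 and -0.091 to 0.025 for Nfatc4. Share differences with single libraries left out ran from -0.67 to 1.18 points for Nfatc1, -0.38 to 0.78 for Nfatc2, -0.95 to 1.26 for Nfatc3, -1.18 to 0.62 for Nfatc4 and -0.23 to 1.39 for Camk2d, and those of Ppp3cb stayed between -2.79 and -1.54 and of Camk2g between -1.78 and -0.92. Without division by gene length the Camk2d difference was 1.76 points (exact permutation p 0.3), and the cause was not tested. With the members alone in the family, it was 1.47 points and that of Ppp3ca 2.96 points, both at an exact permutation p of 0.1 with groups that did not overlap. Depth limits Nfatc2 most, at 56 to 99 reads per library.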

Other observations

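The table places 8 genes between Camk2g and Ppp3cb on chromosome 15, a stretch looked at after the values of its ends were seen, and all 8 were tested. Over all genes tested, 6981 of 13903 had a log2 fold change below 0 and 5.11% had an edgeR unadjusted p under 0.05. Of the 8 genes, 6 had a log2 fold change below 0, with a median of -0.073, and 2 had an unadjusted p under 0.05, in opposite directions. They were Myoz1, whose protein binds calcineurin, at 0.58, and an unnamed gene of low level, at -1.14 (edgeR adjusted p 0.959 for both). Its mean level was 1.41 CPM. The other 6 genes of the stretch had log2 fold changes of -0.011 for the coat protein gene Sec24c, -0.094 for the cytoskeletal gene Synpo2l, -0.051 for Usp54, 0.012 for the mitochondrial gene Chchd1, -0.10 for Fut11 and -0.29 for Zswim8, from the most to the least abundant (edgeR adjusted p 0.975 to 0.998).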
